A study of Mus musculus with 3 samples.

Results

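The 40 genes described here build the precursor of N-linked glycans in the endoplasmic reticulum, transfer it to proteins, trim its first glucoses and supply UDP-GlcNAc, the activated sugar used by the same pathway. They were taken from a list of gene symbols, and all 40 were found among the 31053 genes of the data. The list holds 4 genes of the dolichol carrier, 13 of lipid-linked oligosaccharide assembly, 3 of dolichol-phosphate mannose synthase, 11 of the oligosaccharyltransferase, 3 of first glucose trimming, and 6 of the hexosamine pathway and UDP-GlcNAc transport.

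N-glycosylation starts on dolichol, a long lipid in the membrane of the endoplasmic reticulum, on which a branched oligosaccharide of GlcNAc, mannose and glucose is built sugar by sugar. The oligosaccharyltransferase moves this oligosaccharide onto asparagines of proteins entering the secretory pathway, and glucosidases then remove the glucoses while the protein folds. In the Golgi the glycan is trimmed and can be branched by GlcNAc-transferases, among them the enzyme encoded by Mgat5, which uses UDP-GlcNAc and makes the β-linked branch that the plant lectin L-Pha binds. T cells carry many such branched glycans on their surface receptors, and activated T cells raise both protein secretion and sugar metabolism.

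The cells were T cells from subcutaneous MC38-Ova or B16-Ova tumours of C57BL/6 mice, harvested on day 14 and sorted as TCRB+CD3+CD90.2+CD11b-. MC38-Ova is a colon carcinoma line and B16-Ova a melanoma line, both carrying ovalbumin; the growth protocol itself names MC38-OVA alone. Each tumour was 1 pool of cells, marked by its own hashtag in 1 shared 10x Genomics 5′ capture, and the number of mice behind each pool is not given. Surface L-Pha binding was read in the same cells through an anti-biotin tag that detects the biotinylated lectin, and no cells without the lectin were analysed.

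Classes were set by raw UMIs (unique molecules counted) of a few genes. CD8 cells had at least 2 UMIs of Cd8a and Cd8b1 together and none of Cd4 or Foxp3. Treg cells had Foxp3 and no Cd8a or Cd8b1. Innate-like cells had Cd3e, at least 2 UMIs of Fcer1g and Tyrobp together, none of Cd4 or Foxp3, and at most 1 of Cd8a and Cd8b1. Conventional CD4 cells had Cd4 and no Foxp3, Cd8a or Cd8b1. The MC38-Ova pool gave 2544 CD8, 960 Treg, 780 innate-like and 736 CD4 cells, and the B16-Ova pool 1792 CD8, 777 Treg, 455 innate-like and 753 CD4 cells. Together these were 8797 cells with 66326375 RNA UMIs, and the 8 sums of 1 class in 1 pool held 2592067 to 20937848 UMIs each. A further 6195 cells with a hashtag fell in none of the classes and were not used.

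Of the markers that the rule did not use, those named next were highest in their own class in both pools. Nkg7, a cytotoxic granule gene, was highest in CD8 cells (2530 CPM in MC38-Ova, 2489 CPM in B16-Ova). Tnfrsf4, a costimulatory receptor gene, was highest in Treg cells (1452 CPM in MC38-Ova, 1498 CPM in B16-Ova), Klrb1c, a natural killer receptor gene, in innate-like cells (134 CPM in MC38-Ova, 143 CPM in B16-Ova), and Cd40lg, a helper ligand gene, in CD4 cells (167 CPM in MC38-Ova, 226 CPM in B16-Ova). Ccl5, a chemokine gene listed as a CD8 marker, was not: in MC38-Ova it had 4357 CPM in CD8 and 4776 CPM in innate-like cells, and in B16-Ova 7248 CPM in CD8 and 5811 CPM in innate-like cells. CPM is the usual depth-normalised scale of counts, here a gene's UMIs relative to all RNA UMIs of a sum after scaling by edgeR's TMM factors. Markers of cells outside the sort were present: summed over 5 melanoma genes, the level was 180 CPM in MC38-Ova and 31.9 CPM in B16-Ova Treg cells, and in the other classes 31.0 to 36.9 CPM in MC38-Ova and 256 to 470 CPM in B16-Ova. Summed over 4 stromal genes it was 38.9 to 241 CPM in MC38-Ova and 4.79 to 57.4 CPM in B16-Ova. Over 6 macrophage genes it was 54.3 CPM in MC38-Ova and 191 CPM in B16-Ova Treg cells. In innate-like cells it was 153 CPM and 30.3 CPM in the same pools. CD8 and CD4 cells had 54.8 and 91.8 CPM in MC38-Ova, and 36.5 and 26.8 CPM in B16-Ova.

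The reading of L-Pha rests on a short barcode oligonucleotide carried by the anti-biotin antibody, and the barcode is shown because every L-Pha value below counts its UMIs. Its 15 bases are taken from the labels and printed in lower case, with no base singled out.
Biotin tag: cggtatatcaacaga

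Of the 40 genes, 3 passed an across-gene test in the main form of the comparisons below, Rpn1 between L-Pha quartiles, and Alg3 and Krtcap2 between classes. The 150 bases before their starts are shown to set the same short motifs side by side. The windows come from RefSeq promoters on GRCm38.p6, run 5′ to 3′ on the gene's strand, and carry in capitals each CCAAT or CCACG read on the gene's strand, both letter strings that occur in elements bound by regulators of the unfolded-protein response. Rpn1 lies at chr6:88084482-88105304 on the plus strand, Alg3 at chr16:20605374-20611735 on the minus strand and Krtcap2 at chr3:89245966-89249906 on the plus strand (GENCODE vM21, GRCm38). The Alg3 and Krtcap2 windows lie inside the GENCODE extent of the gene, upstream of a RefSeq start, and Krtcap2 has 2 such starts, of which 1 is shown.
Rpn1, chr6:88084323-88084472, plus strand: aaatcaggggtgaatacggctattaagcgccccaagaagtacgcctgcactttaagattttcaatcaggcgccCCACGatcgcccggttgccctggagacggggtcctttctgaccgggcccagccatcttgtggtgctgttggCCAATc
Alg3, chr16:20610762-20610911, minus strand: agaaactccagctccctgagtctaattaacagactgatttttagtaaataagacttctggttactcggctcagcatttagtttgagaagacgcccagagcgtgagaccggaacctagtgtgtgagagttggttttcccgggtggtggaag
Krtcap2, chr3:89246288-89246437, plus strand: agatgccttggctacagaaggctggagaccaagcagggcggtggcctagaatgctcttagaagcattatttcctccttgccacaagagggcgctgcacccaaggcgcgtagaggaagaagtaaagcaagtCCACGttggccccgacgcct
The Rpn1 window held 1 CCAAT and 1 CCACG, the Krtcap2 window 1 CCACG and the Alg3 window neither.

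Promoters were searched more widely in 250 bases before the start of each gene, on both strands. RefSeq promoters were matched for 35 of the 40 genes; Dpagt1, Alg2, Alg11, Ostc and Gnpnat1 had none in the table used. The full endoplasmic reticulum stress element, searched as CCAAT and CCACG with 9 bases of any kind between them, was found in 1 of the 35 (2.86%) and in 0.13% of 27025 genes. That gene was Alg12, which encodes a mannosyltransferase of the precursor, and the stretch with the element is shown with its CCAAT and CCACG in capitals.
Alg12, chr15:88819480-88819568, minus strand: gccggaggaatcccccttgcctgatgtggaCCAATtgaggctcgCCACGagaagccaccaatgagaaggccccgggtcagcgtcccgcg
CCAAT alone occurred in 18 of the 35 promoters (51.4%, against 37.5% of all genes) and CCACG alone in 14 (40%, against 31.0%), and both strings are contained in the full element. The E-box CACGTG occurred in 5 (14.3%, against 6.86%) and TGACGTGG in 0 (0.603% of all genes). These matches describe letters in a window and were not tested.

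The 40 genes gave 183025 UMIs in the 4 classes, and the oligosaccharyltransferase took 74.7% of them. Assembly of the lipid-linked oligosaccharide took 7.78%, dolichol-phosphate mannose synthase 6.13%, the hexosamine genes 5.25%, first glucose trimming 3.92% and the dolichol carrier 2.26%. In MC38-Ova the median cell held 17 UMIs of the 40 genes in the CD8, 15 in the Treg, 11 in the innate-like and 12 in the CD4 class, and in B16-Ova 18 in the CD8, 16 in the Treg, 11 in the innate-like and 10 in the CD4 class. Each UMI stands for 1 captured 5′ end, so levels do not scale with transcript length, but capture can differ between genes.

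**Figure D1:**
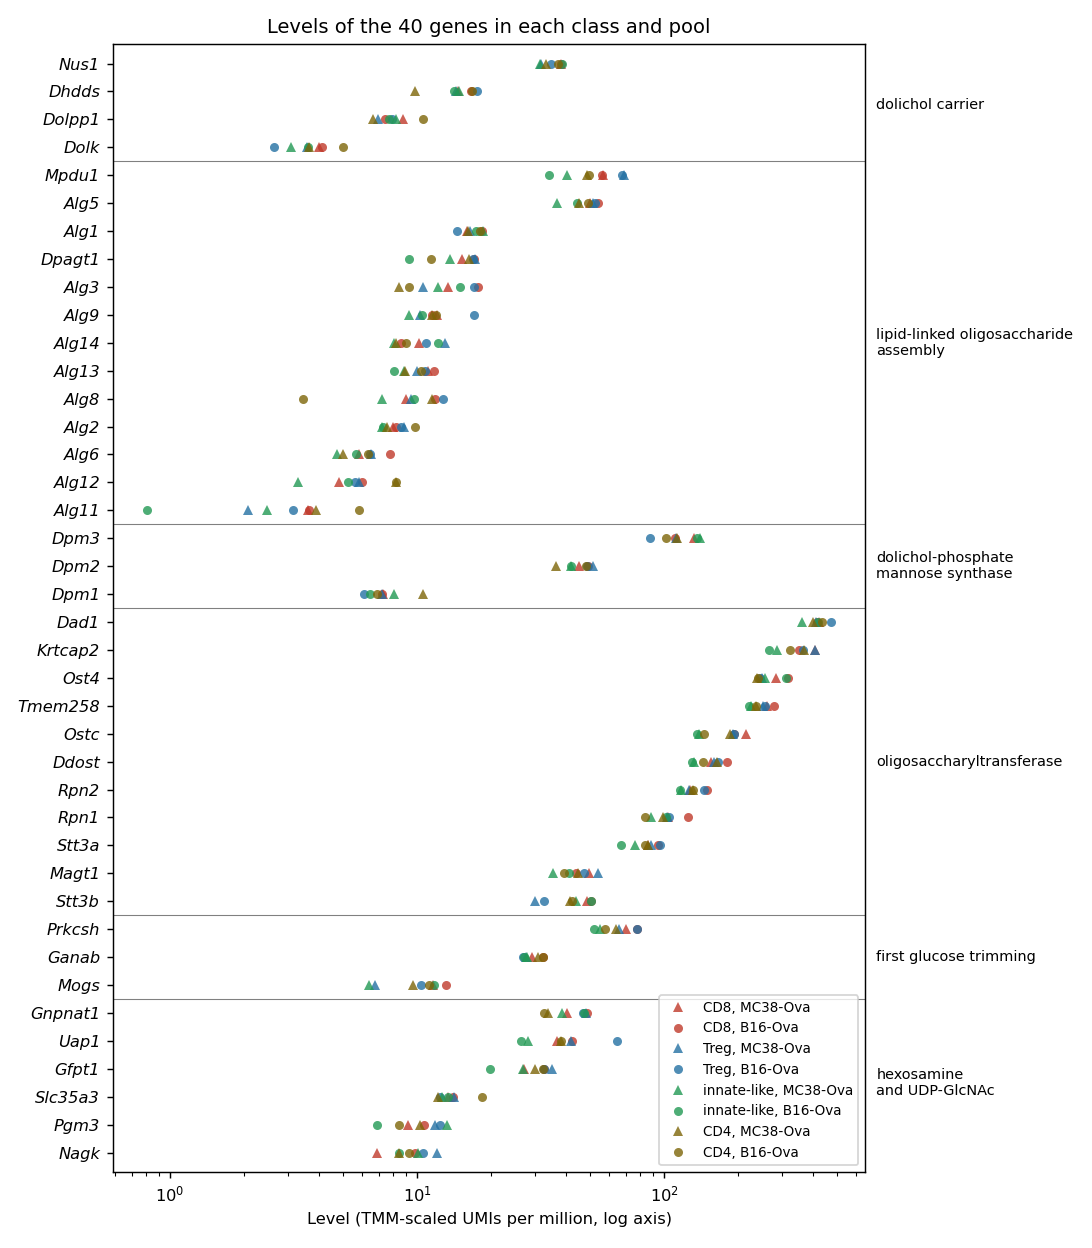
Levels of each of the 40 genes (TMM-scaled CPM, log axis) in the 4 classes, with triangles for the MC38-Ova pool and circles for the B16-Ova pool. Genes are grouped by role and ordered by mean level, and the oligosaccharyltransferase genes reach from a mean of 42.5 for Stt3b to 418 for Dad1.

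Within the oligosaccharyltransferase, the small subunit genes stood highest. Dad1, which encodes a subunit shared by both forms of the complex and named for defence against cell death, averaged 418 CPM over the 8 sums (362 to 474 CPM). Krtcap2, a subunit of the form that contains Stt3a, averaged 347 CPM (265 to 407 CPM). The catalytic subunits were lower: Stt3a, which glycosylates proteins as they enter the endoplasmic reticulum, averaged 84.6 CPM (66.6 to 96.0), and Stt3b, which acts on sites that were skipped, averaged 42.5 CPM (30.04 to 50.7) and was the lowest of the 11.

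The assembly genes were lower, and 2 of them stood apart from the rest. Mpdu1, needed for the use of the lipid-linked mannose and glucose donors, averaged 52.8 CPM (34.3 to 68.5), and Alg5, which makes the glucose donor, averaged 48.1 CPM (36.9 to 54.2). Alg11, which adds mannoses on the cytosolic face, was the lowest of all 40 genes with 3.19 CPM (0.808 to 5.83), and its smallest sum held 2 UMIs. In the mannose donor synthase, the small stabilising subunits led: Dpm3 averaged 116 CPM (87.9 to 140.3) and Dpm2 45.4 CPM (36.6 to 51.5), while the catalytic Dpm1 averaged 7.47 CPM (6.11 to 10.5).

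For the dolichol carrier, Nus1 averaged 35.4 CPM (31.3 to 38.8) and Dhdds 14.8 CPM (9.84 to 17.5). These encode the subunits of the enzyme that makes the polyprenyl chain of dolichol. Dolk, the dolichol kinase gene, was the lowest of that role at 3.73 CPM (2.64 to 5.03). For glucose trimming, Prkcsh and Ganab, the β and α subunits of glucosidase II, averaged 64.9 CPM (52.1 to 77.7) and 29.3 CPM (26.9 to 32.3), and Mogs, glucosidase I, 10.1 CPM (6.39 to 13.1).

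Of the hexosamine genes, Gnpnat1, which acetylates glucosamine phosphate, averaged 42.1 CPM (32.6 to 48.6). Uap1, which makes UDP-GlcNAc itself, averaged 39.5 CPM (26.3 to 64.6). Nagk, which salvages free GlcNAc, averaged 9.46 CPM (6.88 to 12.0) and was the lowest of that role. Across the 8 sums, the ratio of the highest to the lowest level was between 1.20 for Ganab and 7.22 for Alg11, whose lowest sum rests on 2 UMIs. It was 1.31 for Dad1, 2.46 for Uap1, 2.50 for Alg12 and 3.69 for Alg8.

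Summed over the 40 genes, the level was highest in CD8 and Treg cells and lowest in innate-like cells. In CD8 cells it was 2872 CPM in MC38-Ova (95% exact Poisson interval 2848 to 2895, counting error only) and 2946 CPM in B16-Ova (2920 to 2973). In Treg cells it was 2787 CPM (2748 to 2825) in MC38-Ova and 2864 CPM (2822 to 2907) in B16-Ova, in innate-like cells 2402 CPM (2359 to 2446) in MC38-Ova and 2500 CPM (2438 to 2563) in B16-Ova, and in CD4 cells 2640 CPM (2592 to 2688) in MC38-Ova and 2575 CPM (2524 to 2627) in B16-Ova. The point values of different classes did not overlap on this scale. The intervals of MC38-Ova CD8 and B16-Ova Treg cells did, as did those of innate-like and CD4 cells in B16-Ova. Without TMM scaling, CD8 and Treg cells changed places, and CD8 cells stood closer to CD4 cells. The sums were 2771 and 2813 unscaled CPM in CD8 cells of MC38-Ova and B16-Ova, and 2910 and 3017 in Treg cells. In the same pools they were 2747 and 2680 in CD4 cells, and 2292 and 2388 in innate-like cells.

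By gene, Treg cells had the highest mean level for 17 of the 40 genes, CD8 cells for 14, CD4 cells for 7 and innate-like cells for 2. Innate-like cells had the lowest for 22. Without TMM scaling these counts were 24 for Treg, 6 for CD8, 9 for CD4 and 1 for innate-like cells, with innate-like cells lowest for 29. CD8 and Treg cells also held more RNA: the median was 6953 and 7358 UMIs in CD8 cells of MC38-Ova and B16-Ova, 5840 and 5695 in Treg cells, 5655 and 4780 in innate-like cells, and 4528 and 4107 in CD4 cells.

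**Figure D2:**
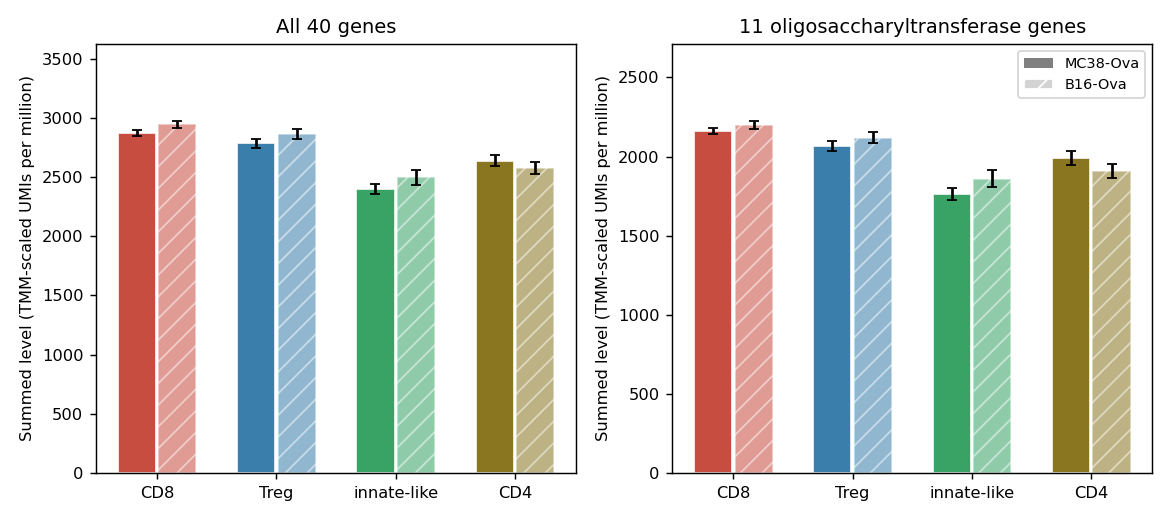
Summed level (TMM-scaled CPM) of all 40 genes and of the 11 oligosaccharyltransferase genes in each class, with plain bars for MC38-Ova, hatched bars for B16-Ova and 95% exact Poisson intervals that cover counting error only. The innate-like bars are the lowest in both panels, at 2402 and 2500 for all 40 genes.

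To ask which T cell classes express the pathway more, CD8, Treg and innate-like cells were each set against CD4 cells over both pools. Few of the 40 genes passed: Alg3 was higher in CD8 cells, Krtcap2 was lower in innate-like cells, and none passed in Treg cells. The test was edgeR's quasi-likelihood F-test on UMIs summed per class and pool, the pool being a blocking term, and p-values were adjusted by Benjamini-Hochberg over 11188 genes with a threshold of 0.05. Both pools come from 1 capture, so the p-values measure the spread between these sums.

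Alg3 encodes the enzyme that adds the first mannose on the lumenal side of the membrane. It had 13.3 CPM in MC38-Ova and 17.6 CPM in B16-Ova CD8 cells, against 8.47 CPM in MC38-Ova and 9.27 CPM in B16-Ova CD4 cells, so the classes did not overlap. Of the 40 genes, 14 had both CD8 sums above both CD4 sums and 2 had both below, where 26.2% and 25.5% of all genes did. The difference for Alg3 was 0.78 ± 0.18 on the log2 scale (± SE), with an adjusted p of 0.0470 by edgeR (quasi-likelihood, Benjamini-Hochberg). It was the single member past the threshold of 40 tested, where 3.3% of all genes were called higher and 3.58% lower in CD8 cells. The call ended with an adjusted p of 0.180 by DESeq2, 0.173 without the pool block, 0.0814 among cells of 3000 to 10000 RNA UMIs and 0.0523 without cells that carried markers of other cell types, in a range of 0.0215 to 0.180 over 6 alternatives. Without cells carrying those markers Rpn1 passed in CD8 cells instead, with 0.47 ± 0.11 (adjusted p 0.0241 by edgeR), against 0.31 with all cells. Alg3 overlaps Vwa5b2 and Eef1akmt4 on the other strand, and whether counting used the strand is not given in the sources used here.

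The oligosaccharyltransferase genes lay a little higher in CD8 cells without passing. All 11 had a positive log2 difference, from 0.01 for Dad1 to 0.33 for Ost4, with a median of 0.15, where 48.8% of all genes were positive. Ost4, a small subunit gene, had 284 CPM in MC38-Ova and 318 CPM in B16-Ova CD8 cells, against 237 CPM and 239 CPM in CD4 cells of the same pools, with an adjusted p of 0.0830 by edgeR. Over all 40 genes the median difference was 0.13, against -0.01 over all genes tested, and 19 were higher and 3 lower in both pools, where 33.7% and 33.4% of all genes were. Among cells of 3000 to 10000 RNA UMIs the median was 0.03. Before TMM scaling, the median gene stood 0.10 lower in MC38-Ova and 0.12 lower in B16-Ova on the log2 scale in CD8 than in CD4 cells, and all differences are relative to that shift.

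In Treg cells 0 of the 40 genes passed edgeR's test, where 1.98% of all genes were called higher and 1.37% lower, and 0 passed in DESeq2. At an unadjusted p under 0.05, 4 of the 40 were higher and 1 was lower, where 9.22% and 8.94% of all genes were. Mpdu1 had 68.5 CPM in MC38-Ova and 67.7 CPM in B16-Ova Treg cells, against 48.5 CPM and 49.8 CPM in CD4 cells (log2 0.47 ± 0.11, adjusted p 0.0702 by edgeR). Its Treg and CD4 sums did not overlap, which held for 22.3% of all genes with Treg cells above and 23.4% with Treg cells below. Without cells carrying markers of other cell types it passed, with 0.51 ± 0.12 (adjusted p 0.0332 by edgeR). Gnpnat1 had 48.5 CPM in MC38-Ova and 47.1 CPM in B16-Ova Treg cells, against 33.9 CPM and 32.6 CPM in CD4 cells (log2 0.52 ± 0.14, adjusted p 0.0955 in the same edgeR test). Among cells of 3000 to 10000 RNA UMIs 2 of the 40 genes passed. Calls over all genes rose in that window as well, from 375 (3.35%) with all cells to the count given in the last section.

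Stt3b went the other way in Treg cells, with 30.04 CPM in MC38-Ova and 32.5 CPM in B16-Ova, against 41.4 CPM and 42.4 CPM in CD4 cells (log2 -0.42 ± 0.11, adjusted p 0.101 by edgeR). The 6 hexosamine genes had a median of 0.36, with 5 of 6 positive, and summed to 163 CPM in MC38-Ova and 180 CPM in B16-Ova Treg cells, against 133 CPM and 139 CPM in CD4 cells. Over all 40 genes the median was 0.12, against 0.00 over all genes tested. In both pools 23 were higher and 9 lower, where 31.3% and 32.0% of all genes were.

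Innate-like cells lay lower than CD4 cells for most of the list. Krtcap2 had 288 CPM in MC38-Ova and 265 CPM in B16-Ova innate-like cells, against 367 CPM and 325 CPM in CD4 cells of the same pools, and the classes did not overlap. Both innate-like sums lay below both CD4 sums for 18 of the 40 genes and above them for 5, where this held for 25.2% and 25.5% of all genes. The difference for Krtcap2 was -0.32 ± 0.08 on the log2 scale, with an adjusted p of 0.0398 by edgeR (quasi-likelihood, Benjamini-Hochberg). This was 1 of 40 genes called, where 4.35% of all genes were called higher and 5.12% lower, 9.47% in all. Over 6 alternatives its adjusted p was 0.0110 to 0.168, the highest without the pool block, which ended the call. Without cells carrying markers of other cell types Alg12 passed as well, at -1.11 ± 0.31 (adjusted p 0.0422 by edgeR; 0.0871 with all cells). Krtcap2 overlaps Trim46 on the other strand.

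An unadjusted p under 0.05 was reached by 11.8% of all genes in the higher and 12.9% in the lower direction. Of the list it was reached among others by Mpdu1 (40.6 CPM in MC38-Ova and 34.3 CPM in B16-Ova innate-like cells, against 48.5 CPM and 49.8 CPM in CD4 cells) and, in the other direction, Dpm3 (140.3 CPM and 136 CPM, against 113 CPM and 101 CPM). Neither passed, with adjusted p of 0.0976 and 0.0704 by edgeR. The median over the 40 genes was -0.16, against 0.00 over all genes, relative to a median gene that stood 0.11 lower in MC38-Ova and 0.13 lower in B16-Ova before TMM scaling. In both pools 5 were higher and 22 lower, where 33.2% and 33.6% of all genes were. Innate-like cells held more Mgat5, with 35.3 CPM in MC38-Ova and 35.9 CPM in B16-Ova, against 21.7 CPM and 20.7 CPM in CD4 cells (log2 0.74 ± 0.17, adjusted p 0.0352 by edgeR).

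**Figure D3:**
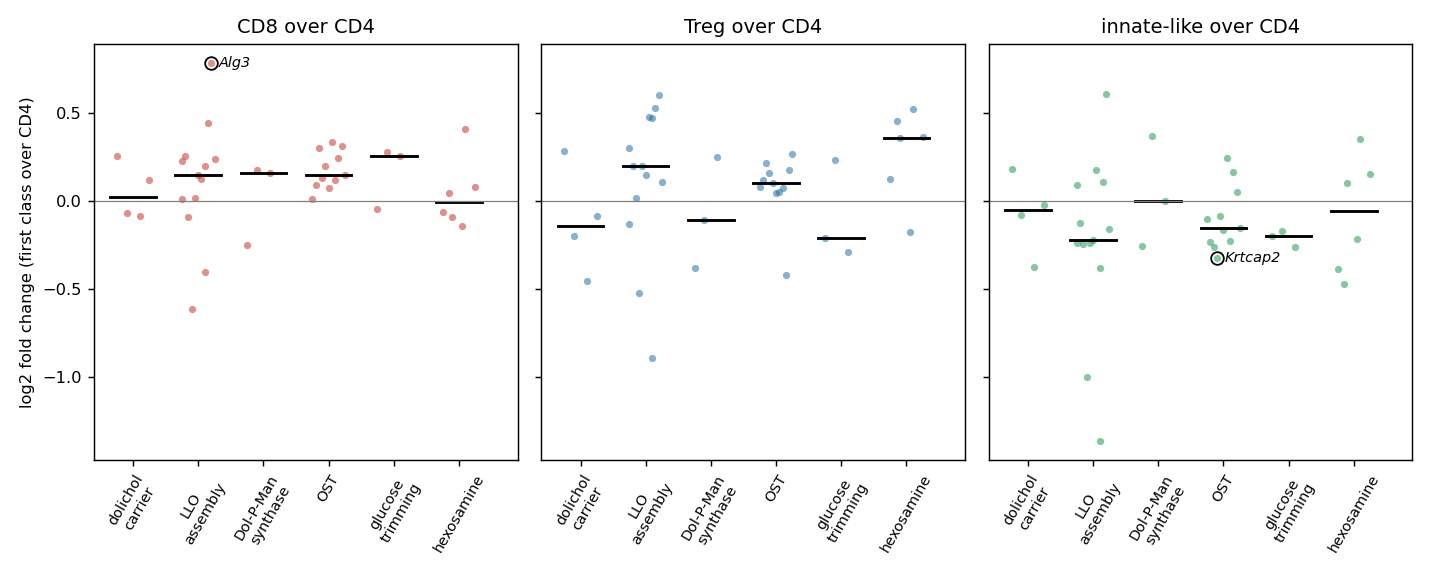
Log2 fold changes of the 40 genes by role in CD8, Treg and innate-like cells over CD4 cells; LLO is the lipid-linked oligosaccharide, Dol-P-Man dolichol-phosphate mannose and OST the oligosaccharyltransferase, bars are medians, and ringed genes passed edgeR's test. Alg3 (0.78) and Krtcap2 (-0.32) are the ringed genes.

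To ask whether cells that bind more L-Pha express more of the precursor pathway, the top and bottom quartiles of L-Pha UMIs were taken within each class and pool, summed and compared in 1 edgeR fit of 9691 genes. Dolk and Alg11 did not pass the filter on low counts, which left 38 of the 40 genes. Rpn1 passed in CD8 cells and no other of the 38 passed in any class. L-Pha-high cells differed in more than L-Pha: in CD8 cells the median RNA was 10618 UMIs in MC38-Ova and 13931 in B16-Ova among L-Pha-high cells, against 4917 and 5391 among L-Pha-low cells.

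Proliferating cells, those with at least 2 UMIs of 6 cycle genes, made up 39.5% of L-Pha-high CD8 cells in MC38-Ova and 60.04% in B16-Ova, against 14.3% and 8.71% of L-Pha-low cells. Cells with 3 or more UMIs of the markers of other cell types made up 11.8% and 5.13% of L-Pha-high CD8 cells in MC38-Ova and B16-Ova, against 2.67% and 1.34% of L-Pha-low cells. The limit was not scaled to a cell's RNA, and leaving those cells out lowered RNA content too. In all MC38-Ova Treg cells the median went from 5840 UMIs (960 cells) to 5469 (855 cells), and the sum from 6916627 to 5425354. In L-Pha-high cells of B16-Ova the 5 melanoma genes summed to 554 CPM in CD8 and 1286 CPM in innate-like cells, against 36.5 CPM in CD8 and 40.3 CPM in innate-like L-Pha-low cells. In MC38-Ova the sum stood out in Treg cells, with 385 CPM in L-Pha-high against 29.97 CPM in L-Pha-low cells. Of the other classes in MC38-Ova, cells with such markers made up 18.3% of Treg, 11.8% of innate-like and 10.3% of CD4 cells that were L-Pha-high, against 2.92%, 1.54% and 1.63% in the L-Pha-low quartiles. The shares in B16-Ova were 8.25% of Treg, 8.85% of innate-like and 3.72% of CD4 cells that were L-Pha-high, against 2.06%, 0.885% and 0.0% of L-Pha-low cells.

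Rpn1, which encodes ribophorin I, a large subunit of the oligosaccharyltransferase that sits beside the ribosome, had 121 CPM in MC38-Ova and 150 CPM in B16-Ova L-Pha-high CD8 cells, against 85.4 CPM and 83.9 CPM in L-Pha-low cells. Both L-Pha-high sums lay above both L-Pha-low sums, which held for 14 of the 38 genes and 26.4% of all genes, and the reverse held for 2 of the 38 and 26.8% of all genes. The difference was 0.67 ± 0.15 on the log2 scale, with an adjusted p of 0.0333 by edgeR (quasi-likelihood, Benjamini-Hochberg). This was 1 of 38 genes, where 2.6% of all genes were called higher and 2.59% lower, 5.19% in all. The call ended in 6 of 8 alternatives, with adjusted p from 0.00358 to 0.328, of which DESeq2 gave 0.192. Without proliferating cells the difference was 0.33 (adjusted p 0.328 by edgeR), and without cells carrying markers of other cell types it was 0.60 (adjusted p 0.0543 by edgeR).

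L-Pha-high cells of the other classes also held more RNA, more hashtag UMIs and a larger share of proliferating cells in both pools. In MC38-Ova Treg cells the median RNA was 9077 UMIs against 3413, and proliferating cells made up 37.9% against 10.4%. Rpn1 was also higher in L-Pha-high cells of these classes in both pools, without passing. In Treg cells it had 134 CPM in MC38-Ova and 127 CPM in B16-Ova, against 81.6 CPM in each L-Pha-low pool (log2 0.68 ± 0.17, adjusted p 0.0725 by edgeR). In innate-like cells it had 120.4 CPM and 126 CPM in MC38-Ova and B16-Ova, against 69.4 CPM and 80.5 CPM (0.73 ± 0.18, adjusted p 0.192), and in CD4 cells 135 CPM and 106 CPM, against 71.1 CPM and 53.4 CPM (0.96 ± 0.19, adjusted p 0.0656), by the same edgeR test. In each class the L-Pha-high and L-Pha-low sums did not overlap, as for 20.1% to 24.8% of all genes in these 3 classes in the higher direction. Without cells carrying markers of other cell types the difference was 0.23 ± 0.19 in Treg, 0.39 ± 0.21 in innate-like and 0.57 ± 0.20 in CD4 cells (adjusted p 0.594, 0.870 and 0.447 by edgeR). In edgeR's test of differences between the 4 classes, 0 of 9691 genes passed and 419 had an unadjusted p under 0.05. Rpn1 overlaps the small RNA gene Mir6376 on the other strand.

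No other subunit of the oligosaccharyltransferase passed in CD8 cells. Ddost, a subunit of the shared core, had 167 CPM in MC38-Ova and 197 CPM in B16-Ova, against 139.8 CPM and 126 CPM in L-Pha-low cells (0.45 ± 0.15, adjusted p 0.108 by edgeR). Rpn2, ribophorin II, had 143 CPM and 168 CPM in the same pools, against 115 CPM and 119 CPM (0.41 ± 0.15, adjusted p 0.134 in the same edgeR test). All 11 genes of the complex had a positive log2 difference, with a median of 0.17, where 49.9% of all genes were positive. Their sum was 2211 CPM in MC38-Ova and 2344 CPM in B16-Ova L-Pha-high cells, against 2094 CPM and 1893 CPM in L-Pha-low cells.

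Among the hexosamine genes in CD8 cells, Gfpt1, the first and rate-limiting enzyme of the pathway, had 29.6 CPM in MC38-Ova and 36.7 CPM in B16-Ova, against 21.8 CPM and 21.3 CPM in L-Pha-low cells (0.60 ± 0.21, adjusted p 0.111 by edgeR). Gnpnat1 had 41.6 CPM and 55.4 CPM in the same pools, against 31.3 CPM and 34.1 CPM (0.55 ± 0.18, adjusted p 0.0956 in the same edgeR test). Of the assembly genes, Dpagt1, which starts the precursor and is the target of tunicamycin, had 17.5 CPM and 19.7 CPM, against 12.7 CPM and 9.96 CPM (0.70 ± 0.29, adjusted p 0.174 in the same edgeR test). The groups did not overlap for any of these 3 genes, which were named after their values were seen. Without cells carrying markers of other cell types the differences were 0.61 for Gfpt1 and 0.66 for Dpagt1, and Gnpnat1 passed with 0.68 ± 0.17 (adjusted p 0.0430 by edgeR) while Rpn1 did not.

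In Treg, innate-like and CD4 cells 0 of 38 genes passed edgeR's test and 0 passed in DESeq2, while 2, 5 and 5 genes were higher and none lower at an unadjusted p under 0.05. Of all genes, 9.28% were higher and 7.72% lower at that p in Treg cells, 6.46% and 3.7% in innate-like cells, and 9.08% and 6.37% in CD4 cells. Of all genes, 0.795% were called higher and 0.774% lower in L-Pha-high Treg cells (1.57% in all), 0.237% and 0.0% in innate-like cells, and 0.258% and 0.0619% in CD4 cells (0.32% in all). The median of the 38 genes was 0.18 in CD8, 0.13 in Treg, 0.17 in innate-like and 0.21 in CD4 cells, against 0.00, 0.02, 0.01 and 0.02 over all genes. In both pools 19 of 38 genes were higher and 3 lower in CD8 cells (33.9% and 35.0% of all genes), 18 and 4 in Treg cells (32.9% and 30.6%), 17 and 8 in innate-like cells (28.3% and 28.3%), and 19 and 5 in CD4 cells (32.0% and 29.5%). By pool, the CD8 median was 0.08 in MC38-Ova and 0.26 in B16-Ova. Before TMM scaling the median gene already stood 0.05 higher in MC38-Ova and 0.20 higher in B16-Ova on the log2 scale in L-Pha-high CD8 cells.

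Neighbouring pathways were counted in the same fit. Of 26 other genes of N-glycan precursor supply and glycoprotein folding, 0 were called in any class by edgeR. Of 19 unfolded-protein genes, 3 were higher and 1 was lower in L-Pha-high CD8 cells, and of 16 proliferation genes 10 were higher and 0 lower. Of 9 branching genes, Mgat5 among them, 0 were called. Mgat5 had 19.1 CPM in MC38-Ova and 11.4 CPM in B16-Ova L-Pha-high CD8 cells, against 17.7 CPM and 17.5 CPM in L-Pha-low cells (-0.22 ± 0.26, adjusted p 0.657 by edgeR), and the groups overlapped.

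Because L-Pha-high cells held more RNA, the quartiles were also taken within deciles of RNA UMIs, so that both groups held cells of like median depth. In CD8 cells the median RNA was then 6951 UMIs in MC38-Ova and 7377 in B16-Ova among L-Pha-high cells, against 6953 and 7352 among L-Pha-low cells, while median L-Pha was 795 and 1008 UMIs, against 202 and 211. Total RNA was not fully evened out. In MC38-Ova the L-Pha-high sums held 2004409 RNA UMIs in Treg and 1206965 in CD4 cells. The L-Pha-low sums of as many cells held 1564515 and 944215. In this comparison 0 of 38 genes passed edgeR's test in any class and 0 passed in DESeq2. Of 9478 genes, 0.106% were called higher and 0.0528% lower in CD8 (0.158% in all), 0.137% and 0.0317% in Treg, 0.127% and 0.0211% in innate-like, and 0.0633% and 0.0317% in CD4 cells. At an unadjusted p under 0.05, 2, 1, 3 and 4 genes of the list were higher in CD8, Treg, innate-like and CD4 cells, and 1 was lower, in Treg cells. Of all genes, 5.43% were higher and 4.91% lower at that p in CD8, 7.35% and 5.58% in Treg, 5.26% and 3.71% in innate-like, and 6.82% and 6.08% in CD4 cells.

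The list's median log2 difference at matched RNA depended on the L-Pha measure. With L-Pha UMIs it was -0.04 in CD8, 0.03 in Treg, 0.08 in innate-like and 0.08 in CD4 cells, against 0.01, 0.01, -0.01 and -0.01 over all genes. With L-Pha per UMI of the cell's own hashtag it was 0.13 in CD8, 0.14 in Treg, 0.12 in innate-like and 0.23 in CD4 cells, and 0 of 38 genes passed edgeR's test there. Proliferating cells made up 31.6% of those L-Pha-high CD8 cells in MC38-Ova and 38.9% in B16-Ova, against 18.6% and 22.4% of L-Pha-low cells. Their median hashtag UMIs were 395.5 and 385, against 564 and 526. With plain L-Pha UMIs, the median gene before TMM scaling stood 0.07 higher in MC38-Ova and 0.12 higher in B16-Ova in L-Pha-high CD8 cells. In both pools 8 of 38 genes were higher and 11 lower in CD8 cells, where 29.6% of all genes were in each direction, and 14 and 10 in Treg cells, where 28.2% and 29.7% were. In innate-like cells 15 were higher and 7 lower (27.5% and 28.9% of all genes), and in CD4 cells 10 and 7 (26.2% and 28.2%). Rpn1 stood at -0.07 in CD8, 0.31 in Treg, 0.45 in innate-like and 0.45 in CD4 cells with L-Pha UMIs. Without cells carrying markers of other cell types it stood at -0.15 in CD8, -0.09 in Treg, -0.02 in innate-like and 0.02 in CD4 cells. In MC38-Ova the L-Pha-high and L-Pha-low sums then held 1369026 and 1292923 RNA UMIs in Treg cells. They held 893498 and 877449 in CD4 cells.

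The genes with the smallest unadjusted p at matched RNA belonged to the hexosamine genes in CD8 cells and to the oligosaccharyltransferase in CD4 cells. Gfpt1 had 28.96 CPM in MC38-Ova and 39.9 CPM in B16-Ova L-Pha-high CD8 cells, against 22.96 CPM and 23.8 CPM in L-Pha-low cells (0.54 ± 0.18, adjusted p 0.301 by edgeR). In Treg cells it had 36.7 CPM and 38.4 CPM in MC38-Ova and B16-Ova, against 20.96 CPM and 31.5 CPM (0.54 ± 0.23, adjusted p 0.345 in the same edgeR test). Stt3a had 91.7 CPM in MC38-Ova and 111 CPM in B16-Ova L-Pha-high CD4 cells, against 71.4 CPM and 69.4 CPM (0.52 ± 0.17, adjusted p 0.258 in the same edgeR test). The sums did not overlap in these comparisons, named after their values were seen, and none passed. Both L-Pha-high sums lay above both L-Pha-low sums for 3 of the 38 genes in CD8, 8 in Treg and 5 in CD4 cells, where this held for 18.0%, 18.9% and 16.1% of all genes. The reverse held for 9 of the 38 genes in CD8, 5 in Treg and 5 in CD4 cells, and for 18.7%, 20.8% and 19.7% of all genes. Without cells carrying markers of other cell types the differences were 0.44 for Gfpt1 in CD8 and 0.57 in Treg cells, and 0.34 for Stt3a in CD4 cells.

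At matched RNA the groups of L-Pha UMIs still differed in other ways. Proliferating cells made up 27.0% of L-Pha-high CD8 cells in MC38-Ova and 37.3% in B16-Ova, against 23.8% and 24.7% of L-Pha-low cells. Median hashtag UMIs of these CD8 groups were 535 and 512.5, against 381.5 and 400. Markers of other cells differed as well. Cells with 3 or more such UMIs made up 9.68% of L-Pha-high CD8 cells in MC38-Ova and 3.39% in B16-Ova, against 3.97% and 2.71% of L-Pha-low cells. The share was 15.4% and 6.84% of L-Pha-high Treg cells in the same pools, against 9.17% and 3.16%. It was 10.0% and 10.9% of L-Pha-high innate-like cells, against 4.21% and 0.909%, and 8.89% and 4.37% of L-Pha-high CD4 cells, against 1.11% and 0.0%. Without those cells 0 of 37 genes tested passed edgeR's test in any class at matched RNA.

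**Figure D4:**
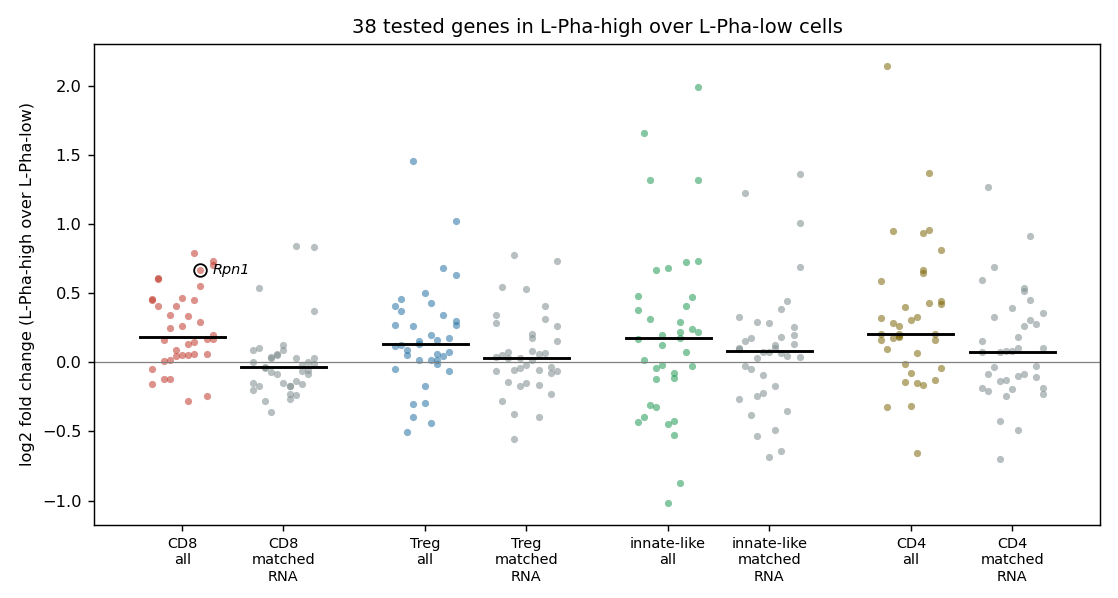
Log2 fold changes of the 38 tested genes in L-Pha-high over L-Pha-low cells of each class, coloured for quartiles of all cells and grey for quartiles within RNA deciles; bars are medians, and the ringed gene passed edgeR's test. The median in CD8 cells is 0.18 for all cells and -0.04 at matched RNA.

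In CD8 cells the summed level was higher at each step of both measures, though some L-Pha steps in MC38-Ova lay within overlapping intervals. In CD8 cells of MC38-Ova it was 2764, 2768, 2889 and 2910 CPM from the lowest to the highest L-Pha quartile, and in B16-Ova 2532, 2682, 2942 and 3115 CPM. By quartile of RNA UMIs it was 2467, 2638, 2884 and 3117 CPM in MC38-Ova and 2554, 2613, 2856 and 3228 CPM in B16-Ova. The span was wider by RNA than by L-Pha in both pools. The highest RNA quartile had the highest summed level in all 8 combinations of class and pool. Over L-Pha quartiles the level also rose at each step in innate-like and CD4 cells of MC38-Ova, but not in the other combinations. Treg cells of MC38-Ova had 2571, 2872, 2791 and 2813 CPM, and innate-like cells of B16-Ova 2408, 2538, 2510 and 2528 CPM.

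**Figure D5:**
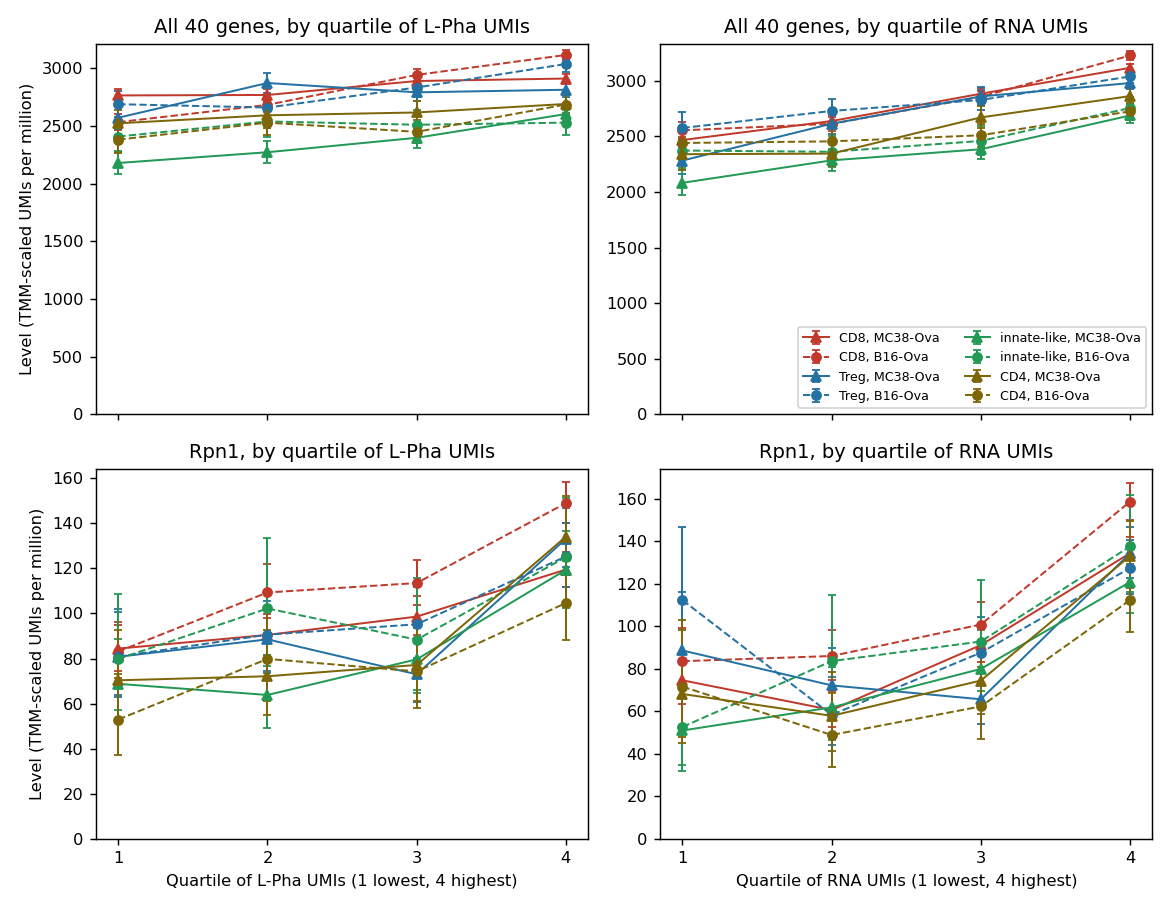
Summed level of the 40 genes (upper panels) and level of Rpn1 (lower panels), in TMM-scaled CPM, by quartile of L-Pha UMIs and of RNA UMIs, with solid lines and triangles for MC38-Ova, dashed lines and circles for B16-Ova, and 95% Poisson intervals for counting error only. In CD8 cells of B16-Ova the summed level is 2532 in the lowest and 3115 in the highest L-Pha quartile, and 2554 and 3228 in the lowest and highest RNA quartile.

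Rpn1 was highest in the top quartile of L-Pha in every class and pool. In CD8 cells it was 84.4, 90.5, 98.6 and 119 CPM over the L-Pha quartiles of MC38-Ova, and 83.1, 109, 113 and 149 CPM over those of B16-Ova. By RNA quartile it was 74.6, 60.6, 91.2 and 134 CPM in MC38-Ova and 83.6, 86.0, 101 and 159 CPM in B16-Ova. It was highest in the top quartile of RNA in every class and pool as well.

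The tumours were compared within each class as ratios of CPM without TMM scaling, MC38-Ova over B16-Ova, for genes with at least 100 UMIs in both sums together. With 1 pool per tumour there was no test, and the intervals are exact conditional ones that cover counting error only. Pool and tumour cannot be told apart. Past the limit of 1.5-fold with an interval that leaves out 1, no gene of the list was higher in MC38-Ova in any class, 4 were lower in Treg cells and 2 in CD4 cells.

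In CD8 cells all 40 genes had enough UMIs and 0 passed the limit, where 5.47% of all genes did so higher and 5.7% lower in MC38-Ova. Their median ratio was 0.927, against 1.00 over all genes, and 12 of 40 lay above 1, where 49.9% of all genes did. Proliferating cells made up 24.3% of CD8 cells in MC38-Ova and 31.7% in B16-Ova. In innate-like cells 0 of 23 genes passed, where 4.09% and 1.76% of all genes did.

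In Treg cells 34 genes had enough UMIs and 4 were lower in MC38-Ova, where 4.94% of all genes were higher and 3.59% lower. Uap1 had 43.7 unscaled CPM in MC38-Ova and 68.0 in B16-Ova Treg cells, a ratio of 0.642 (95% interval 0.550 to 0.748). The others rested on fewer UMIs: Alg9, another mannosyltransferase gene, had 74 UMIs in MC38-Ova and 103 in B16-Ova (ratio 0.597, 0.437 to 0.812), Alg3 76 and 103 UMIs in the same pools (0.613, 0.450 to 0.833), and Mogs 49 and 63 (0.646, 0.436 to 0.954). Among Treg cells of 3000 to 10000 RNA UMIs the Uap1 ratio was 0.603 and 1 gene passed, while Alg9, Alg3 and Mogs had under 100 UMIs there.

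In CD4 cells 25 genes had enough UMIs, and Dhdds and Slc35a3 were lower in MC38-Ova, where 3.66% of all genes were higher and 2.72% lower. Dhdds had 43 UMIs in MC38-Ova and 63 in B16-Ova (ratio 0.590, 0.391 to 0.883). Slc35a3, which carries UDP-GlcNAc into the Golgi, had 53 and 69 UMIs in the same pools (0.664, 0.455 to 0.963). Among CD4 cells of 3000 to 10000 RNA UMIs both genes had under 100 UMIs and no value. With TMM factors taken from these 2 sums alone the Slc35a3 ratio was 0.669, short of the limit.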

How the data were processed

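Raw UMI counts of genes and antibody tags were deposited for 19912 barcodes, with 169579110 RNA UMIs. Cell Ranger 3.1.0, mm10, R 3.6.1 and Seurat 3.1.0 are named, per the submitters' processing notes, and per the file headers software version 3.0.2 wrote the matrix. The annotation release and the use of strand are not given in the sources used here. T cell receptor data were not analysed here.

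A barcode needed 500 genes or more and a mitochondrial share of 10% or less (18429 barcodes), and was kept where the larger hashtag count was at least 150 and 3 times the other (14992). This drops doublets of unlike hashtags, doublets within a pool remain, and no doublet caller was run. Cells are not replicates, so UMIs were summed per class and pool, and in quartiles of L-Pha UMIs.

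Sums were tested with edgeR 4.0.16 (TMM, filterByExpr, quasi-likelihood F-test, Benjamini-Hochberg over all genes, 0.05), with pool as a block for classes (8 sums, 3 residual degrees of freedom, 7.75 in total) and class and pool for L-Pha (16 sums, 4 residual degrees of freedom, 12.03 in total, and 10.7 within RNA deciles). DESeq2 1.42.0 was an alternative, and the code was tested on simulated data. Pools are the blocks because both hashtags contain every class; the labels give no replicate numbers.

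The members and gene lists were chosen with earlier results of these data known. Named were members past a test or fold limit, and for levels the 2 highest and the lowest of each role. Other members, among them those with an unadjusted p under 0.05, and Stt3a were chosen after their values were seen, as was the alternative that leaves out cells with markers of other cell types.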

Additional observations from a re-analysis of the deposited data

How the results depend on the processing

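No called result changed direction under any alternative run of its own comparison. The comparison within RNA deciles was counted separately, and there Rpn1, called in L-Pha-high CD8 cells, was slightly lower in L-Pha-high CD8 cells. In class contrasts the number of members called in CD8 cells (1) became 2 with no filter and 0 with DESeq2, without the pool block or among cells of 3000 to 10000 RNA UMIs. In Treg cells (0) it became 2 in that depth window and 1 without cells carrying markers of other cell types, and in innate-like cells (1) it became 0 without the pool block, 3 in the depth window and 2 without such cells. In CD8 cells without such cells it was again 1, but Rpn1 in place of Alg3 over CD4 cells and Gnpnat1 in place of Rpn1 for L-Pha. For L-Pha in CD8 cells (1) it became 0 with DESeq2, a separate fit per class, terciles or no proliferating cells. It became 1 in Treg, innate-like and CD4 cells (0 each) with no filter, and 1 in innate-like and 2 in CD4 cells with a separate fit. Within RNA deciles it was 0 under each alternative run. The tumour ratios past the fold became 4 in CD8 (0) and 4 in CD4 cells (2) at the lower fold limit tried, 1 in CD8, Treg and innate-like cells and 0 in CD4 cells in the depth window, 2 in innate-like cells at 30 UMIs, and 1 in CD4 cells with TMM scaling of the 2 sums alone or without cells carrying other markers.

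Counts of all genes called moved more. Over CD4 cells, 770 in CD8 cells became 1326 with no filter, 119 without the pool block and 1569 without cells carrying other markers, 375 in Treg cells became 707, 104 and 701 under those settings and 879 in the depth window, and 1060 in innate-like cells became 614 without the block and 1679 in the depth window. For L-Pha, 503 in CD8 cells became 1281 with no filter, 127 with DESeq2, 2 in a separate fit, 318 with L-Pha per own-hashtag UMI and 270 without proliferating cells, and 152 in Treg cells became 745 with no filter, 56 with DESeq2 and 98 without cells carrying other markers. In innate-like cells 23 became 314 with no filter, 244 in a separate fit, 9 per own-hashtag UMI, 11 with terciles, 9 without proliferating cells and 0 without cells carrying other markers, and in CD4 cells 31 became 560, 506, 6, 20 with the first 4 of these and 8 with the last. Within RNA deciles, 15 in CD8 cells became 23 with RLE scaling, 169 with no filter, 1 with DESeq2, 258 per own-hashtag UMI and 163 without cells carrying other markers, and 16 in Treg cells became 256 with no filter, 9 with DESeq2, 7 in a separate fit, 328 per own-hashtag UMI and 308 without such cells. In innate-like cells 14 became 94 with no filter, 268 in a separate fit, 9 per own-hashtag UMI and 6 without such cells, and in CD4 cells 9 became 120 with no filter, 24 with DESeq2, 19 in a separate fit, 27 per own-hashtag UMI and 43 without such cells. Leaving out a pool left no test, and the members' median log2 difference was then 0.13 to 0.14 in CD8, 0.06 to 0.10 in Treg and -0.16 to -0.15 in innate-like over CD4 cells, and 0.08 to 0.26 for L-Pha in CD8 cells. For the other classes it was 0.14 to 0.17 in Treg, 0.06 to 0.23 in innate-like and 0.09 to 0.34 in CD4 cells. At matched RNA it was -0.09 to 0.03 in CD8 and -0.07 to 0.11 in CD4 cells, on both sides of 0, and per own-hashtag UMI it was 0.13 in CD8, 0.14 in Treg, 0.12 in innate-like and 0.23 in CD4 cells, where it was -0.04, 0.03, 0.08 and 0.08 with plain L-Pha UMIs. The causes were not tested. Low UMI counts limit the rarer members such as Alg11.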
